A study of Homo sapiens with 7 samples.

Results

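Aminoacyl-tRNA synthetases are the enzymes that join each amino acid to its matching tRNA, and so supply the ribosome with charged tRNA. Most exist as separate nuclear genes for the cytosol and for mitochondria, although GARS1 and KARS1 each serve both compartments. When charging fails, uncharged tRNA activates the kinase GCN2 (EIF2AK4), and the transcription factor ATF4 that is then made is known to raise many cytosolic synthetase genes together with amino acid synthesis and transport genes.

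The 35 members were chosen by name as genes coding for these enzymes, 19 cytosolic and 16 mitochondrial; the rule itself uses no measured value. Of the 19775 genes with a probe set of their own on the array, 32 were members, namely 17 of the 19 cytosolic and 15 of the 16 mitochondrial. MARS1, QARS1 and TARS2, which charge methionine, glutamine and mitochondrial threonine tRNA, were matched only by probe sets listed with several genes, so no value is given for them.

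The cells were HSC-3, an established line from a human oral squamous carcinoma, without any genetic change named in the labels. An unheated control was kept at 37 °C. The other 6 arrays came from cells heated for 90 min at 42 °C or at 44 °C and then returned to 37 °C for 0, 6 or 12 h. Each condition was read on 1 array, a 3′ expression array of 54675 probe sets, so no difference below has a replicate check or a test.

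Median intensity over all probe sets ran from 18.7 to 32.1, and the unheated array was at 22.4. Taken over probe sets that reached the median of all values on all 7 arrays, heated arrays lay a median of -0.13, 0.24 and 0.16 in log2 from the control through the 42 °C course, and 0.40, -0.07 and -0.35 through the 44 °C course. Each difference was therefore computed on 3 scales: deposited values, quantile-normalized values, and values shifted by these medians. The words rose and fell are kept for genes that passed 1.5-fold in the same direction on all 3 scales. Intensity values and log2 differences are those of the deposited values unless another scale is named. As a yardstick of measurement error, log2 differences of different bright probe sets for 1 gene scattered with an SD of 0.24 to 0.32, and those of dim ones with an SD of 0.47 to 0.54; this covers disagreement between probe sets and not between cultures. A probe set is called bright if it read at least 85.4, 4 times the median of all values, on all 7 arrays. It is called dim if it never fell below that median and stayed under 170.8, 8 times the median, on every array.

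The heat labels were checked with DNAJB1, a heat-shock co-chaperone, and with HSPA6 and BAG3. DNAJB1 read 881 in the control, 9949, 1354 and 1299 through the 42 °C course, and 7110, 7004 and 6989 through the 44 °C course. At 6 h after 42 °C HSPA6 and BAG3 rose. At 12 h after 42 °C 0 of the 3 genes passed 1.5-fold on all 3 scales, so they do not check the label of that array. All 8 measured squamous epithelial markers were bright on every array, with a summed intensity of 42059 to 58863. Summed leukocyte markers were at 34.3 to 72.5, endothelial markers at 39.0 to 83.5, and fibroblast markers at 203 to 420, most of the latter from COL1A1. Their part in the differences below was not tested.

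Start-site sequences are shown first for the members that hold the letters TGATGNAA, the form of the site at which ATF4 pairs with a C/EBP factor, because these members are compared with the others further on. RefSeq promoter windows on GRCh38.p14, 250 bases before to 50 bases after a start, were in hand for 30 of the 35 members. They were searched on both strands. The letters were found in 8 of those 30 members: 7 of 16 cytosolic (43.8%) and 1 of 14 mitochondrial (7.14%). Over all windows of the same length 3.62% held them, and 4.46% of all genes. Each line reads along the gene's strand, with 11 bases on either side of the match and the matched letters, or their complement, in capitals.
AARS1 (chr16:70289675-70289704, minus strand): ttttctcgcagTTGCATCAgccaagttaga
CARS1 (chr11:3057407-3057436, minus strand): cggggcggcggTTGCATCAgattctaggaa
GARS1 (chr7:30594834-30594863, plus strand): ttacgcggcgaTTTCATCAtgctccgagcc
IARS1 (chr9:92293692-92293721, minus strand): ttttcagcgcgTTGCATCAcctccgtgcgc
MARS1 (chr12:57488053-57488082, plus strand): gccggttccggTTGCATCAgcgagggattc
NARS1 (chr18:57621804-57621833, minus strand): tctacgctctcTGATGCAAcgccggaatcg
TARS1 (chr5:33440956-33440985, plus strand): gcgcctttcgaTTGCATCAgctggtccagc
YARS2 (chr12:32756076-32756105, minus strand): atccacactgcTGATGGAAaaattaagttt

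In 6 of these 8 genes the letters were TGATGCAA, while GARS1 had TGATGAAA and YARS2 TGATGGAA. The match lay close to the start in most of them, from 33 bases before it in GARS1 to 15 bases after it in NARS1. In AARS1 and YARS2 it began further upstream, 187 and 197 bases before the start. The longer form TGATGNAAT, which contains the first, was in GARS1 and TARS1 and in 0.991% of all windows. The core TGATG, contained in both, was in 15 members and 32.9% of all windows, too common to separate genes. TGACGTCA, the cyclic-AMP response element, was in 1.85% of all windows and in 0 members. The heat-shock element was in 0.490% of all windows and in 0 members. A match describes letters in a window and is not evidence of binding, and no match says only that the letters are not in that window.

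Few cytosolic synthetases passed the call rule after heat, each read from its brightest probe set. All 17 measured members were bright on all 7 arrays, and 4 of the 17, CARS1, FARSA, VARS1 and WARS1, passed 1.5-fold in any of the 6 comparisons with the control. Over all 14975 genes that reached the median of all values, the share was 40.0%. At 2-fold 0 of the 17 passed, against 13.3% of all genes. A list of 17 is too small for these shares to set it apart from all genes. On the deposited values alone 8 of the 17 were past 1.5-fold directly after 44 °C. Other bright probe sets of SARS1 and EPRS1 read -1.32 and -1.22 at 12 h after 44 °C. Among the mitochondrial synthetases 5 of 15 passed at 1.5-fold and 3 of 15 at 2-fold, and these were the members with the widest range.

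**Figure D1:**
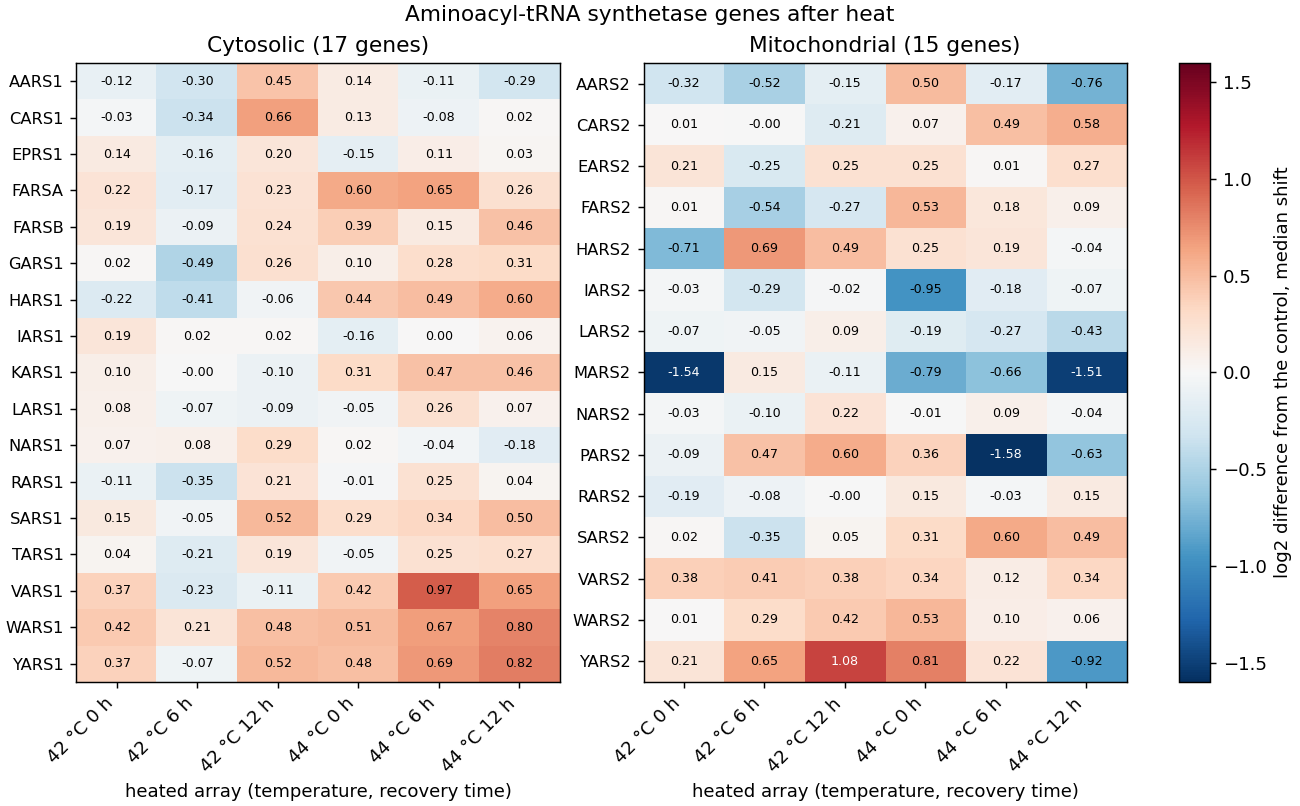
Log2 difference of each measured member from the control array after the median shift, for the 6 heated arrays; red is higher and blue lower. The deepest colours are mitochondrial (MARS2 -1.54 directly after 42 °C, PARS2 -1.58 at 6 h after 44 °C, YARS2 1.08 at 12 h after 42 °C), and most cytosolic cells are pale.

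Directly after 42 °C no cytosolic member had moved past 1.5-fold, and the median log2 difference over the 17 was -0.03, beside -0.07 over all genes. Among all genes 4.16% rose and 9.20% fell. At 6 h the cytosolic median was 0.08, beside 0.13 over all genes, and again 0 of 17 passed, with 6.58% of all genes higher and 6.33% lower. After the median shift this 6 h array was the lowest of the 7 for 12 of the 17, as after quantile normalization. On the deposited values it was the lowest for 1 of the 17.

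At 12 h after 42 °C all 17 cytosolic members lay above the control on the deposited values, by 0.06 to 0.82. Their median was 0.39, beside 0.09 over all genes and 0.21 over genes that reached 85.4 on any array. Members above the all-gene median numbered 14 of 17 on the deposited values, 13 after the median shift and 12 after quantile normalization. Only CARS1 rose past 1.5-fold on all 3 scales, 1 of 17, a share near the 4.87% of all genes that rose; 5.07% fell.

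CARS1, the cysteinyl-tRNA synthetase, read 2356 in the control, 2112, 2197 and 4163 at 0, 6 and 12 h after 42 °C, and 3405, 2113 and 1869.8 at 0, 6 and 12 h after 44 °C. At 12 h after 42 °C it rose 1.77-fold (log2 0.82, and 0.66 after the median shift). The high value directly after 44 °C lay within the brightness of that array: its difference was 0.53 on the deposited values and 0.13 after the median shift. At 12 h after 42 °C the other bright CARS1 probe sets read 1.20 and 0.96, and a dim one 1.70.

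AARS1, the alanyl-tRNA synthetase, also read highest at 12 h after 42 °C, at 1107. It read 1048 directly after 44 °C, which is 0.54 above the control in log2 on the deposited values and 0.14 after the median shift. The other AARS1 values were 723 in the control, 608 and 693 at 0 and 6 h after 42 °C, and 638 and 464 at 6 and 12 h after 44 °C. The last value was the lowest of the 7. Its log2 difference at 12 h after 42 °C was 0.61 on the deposited values and 0.45 after the median shift, so it did not pass on every scale. SARS1, for serine, differed there by 0.69 and by 0.52 after the median shift.

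**Figure D2:**
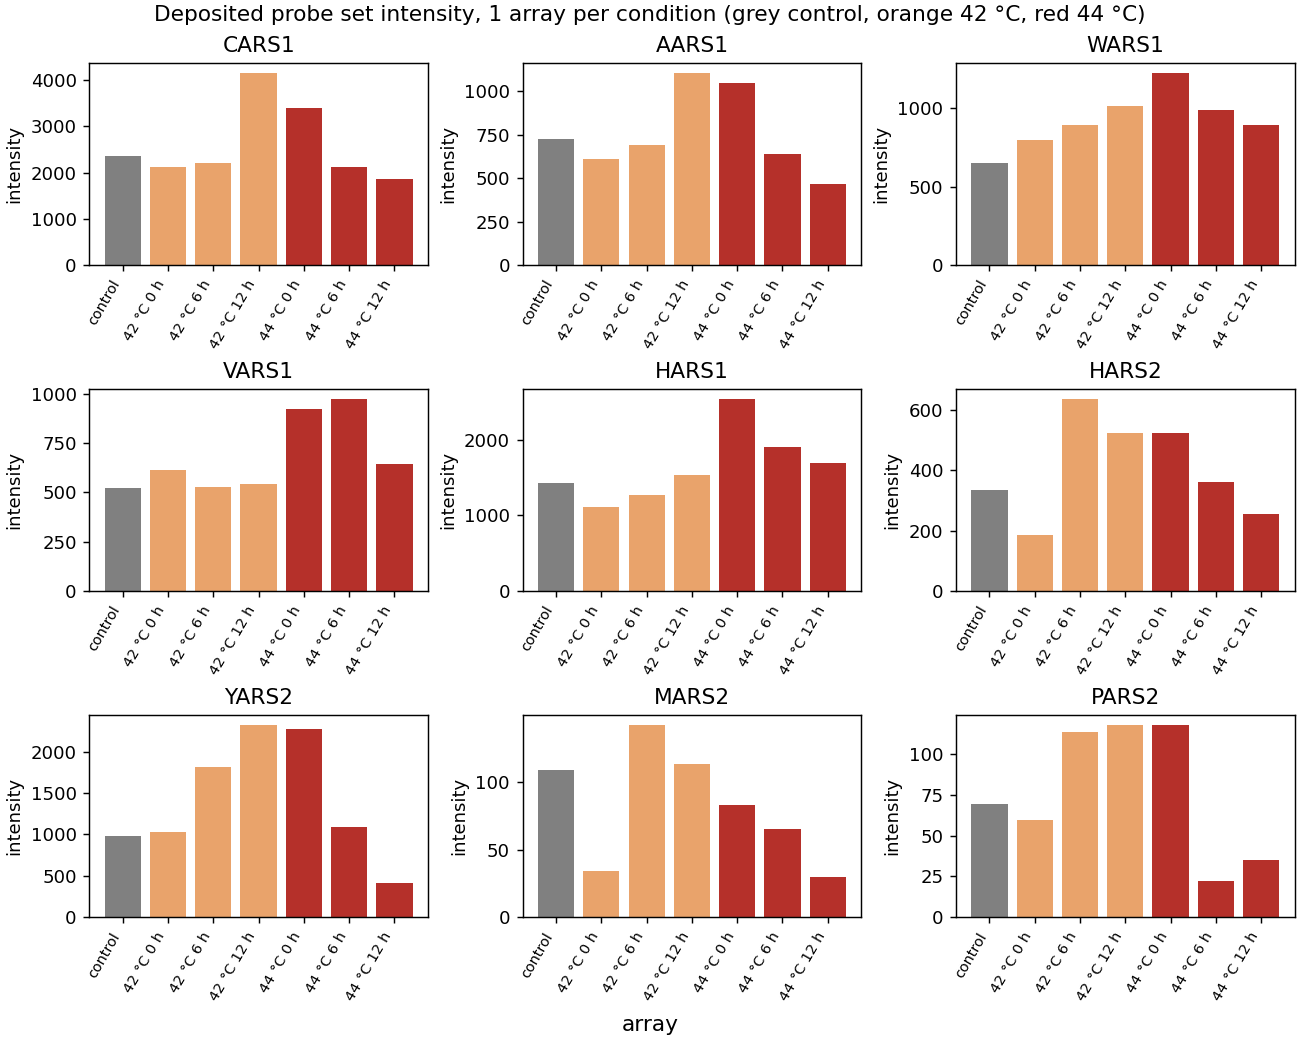
Deposited intensity (linear axis from 0, arbitrary units) of 9 members on each of the 7 arrays, 1 bar per array; grey is the control, orange 42 °C and red 44 °C. CARS1 and AARS1 peak at 12 h after 42 °C (4163 and 1107), HARS1 directly after 44 °C (2540), and YARS2 runs from 2322 at 12 h after 42 °C to 408 at 12 h after 44 °C.

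Directly after 44 °C the whole array was bright, and the cytosolic median of 0.54 stood beside 0.38 over all genes. FARSA alone rose on all 3 scales, 1 of 17, while 9.30% of all genes rose and 3.31% fell. FARSA, the catalytic subunit of phenylalanyl-tRNA synthetase, read 445 in the control, 473, 466 and 584 through the 42 °C course, and 892, 662 and 418 through the 44 °C course. On the deposited values it was highest directly after 44 °C, 2.01-fold above the control (0.60 in log2 after the median shift). At 12 h it was back near the control level on that scale. After the median shift it was highest at 6 h (0.65), and still 0.26 above the control at 12 h. Directly after 44 °C its second probe set read 0.80 on the deposited values and 0.40 after the median shift. The call is lost with the mean over both probe sets (0.50 after the median shift) and without the floor on low values (0.57). FARSB, the other subunit of the same enzyme, was 0.79 above the control there on the deposited values and 0.39 after the median shift.

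At 6 h after 44 °C VARS1 and WARS1 rose, 2 of 17, beside 5.83% of all genes. The cytosolic median was 0.18, beside 0.00 over all genes. VARS1, which charges valine tRNA, read 523 in the control, 615, 527 and 543 through the 42 °C course, and 923, 974 and 646 through the 44 °C course. On this probe set all 3 arrays at 44 °C were above all others, and the log2 difference at 6 h was 0.90. The second VARS1 probe set read 0.80, -0.03 and -0.75 at 0, 6 and 12 h after 44 °C. The rise at 6 h thus rests on 1 of 2 probe sets and is lost with their mean (0.43).

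WARS1, the tryptophanyl-tRNA synthetase, known as an interferon-induced gene, was lowest in the control, at 655. It read 796, 895 and 1019 through the 42 °C course and 1229, 988 and 894 through the 44 °C course. Every heated array was above the control, by 0.28 to 0.91, and the difference passed on all 3 scales at 6 h after 44 °C (0.59). The second WARS1 probe set read 0.34 there, and the call is lost with the mean of both (0.46).

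At 12 h after 44 °C 0 of 17 cytosolic members rose or fell on all 3 scales, beside 4.96% of all genes higher and 10.8% lower. Their median was -0.08, beside -0.16 over all genes. YARS1, for tyrosine, lay between its control value of 1535 and 2824, and every heated array was above the control on the deposited values. This does not hold on every scale: at 6 h after 42 °C the difference was 0.17, but -0.07 after the median shift. The other YARS1 probe set, a dim one at 46.0 to 118, read -0.18 at 6 h after 42 °C. At 12 h after 44 °C the YARS1 log2 difference was 0.47 on the deposited values and 0.82 after the median shift. Read from that dim probe set, YARS1 passed on all 3 scales here (0.61 on the deposited values).

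The multisynthetase complex is an assembly of several cytosolic synthetases held by scaffold proteins. None of its 5 measured enzymes, EPRS1, IARS1, KARS1, LARS1 and RARS1, passed 1.5-fold on all 3 scales in any of the 9 comparisons, and neither did the scaffold gene AIMP1. Against the control 4 of the 12 members outside the complex passed and 0 of these 5, where 40.0% of all genes did; counts this small separate neither group from the background. The median at 12 h after 42 °C was 0.19 over the 5 and 0.44 over the 12; the difference between them was not tested. The probe sets of EPRS1, a fused enzyme for glutamate and proline, disagreed: at 12 h after 44 °C they read -1.22, -0.90 and -0.32.

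After the median shift the steadiest cytosolic members belonged to this complex. On the deposited values TARS1, outside the complex, had the smallest cytosolic range (0.45). IARS1, for isoleucine, read 3743 in the control, 3903, 4481 and 4259 through the 42 °C course, and 4432, 3568 and 3068 through the 44 °C course. LARS1, the leucine enzyme and also a leucine sensor for mTORC1, read 1517 in the control, 1463, 1712 and 1593 at 42 °C, and 1934, 1724 and 1249.9 at 44 °C. Both had a range of 0.35 in log2 over the 7 arrays after the median shift, little more than the SD between probe sets. For LARS1 this holds for the brightest of 4 probe sets; another read -1.04 directly after 42 °C and -1.02 at 12 h after 44 °C.

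**Figure D3:**
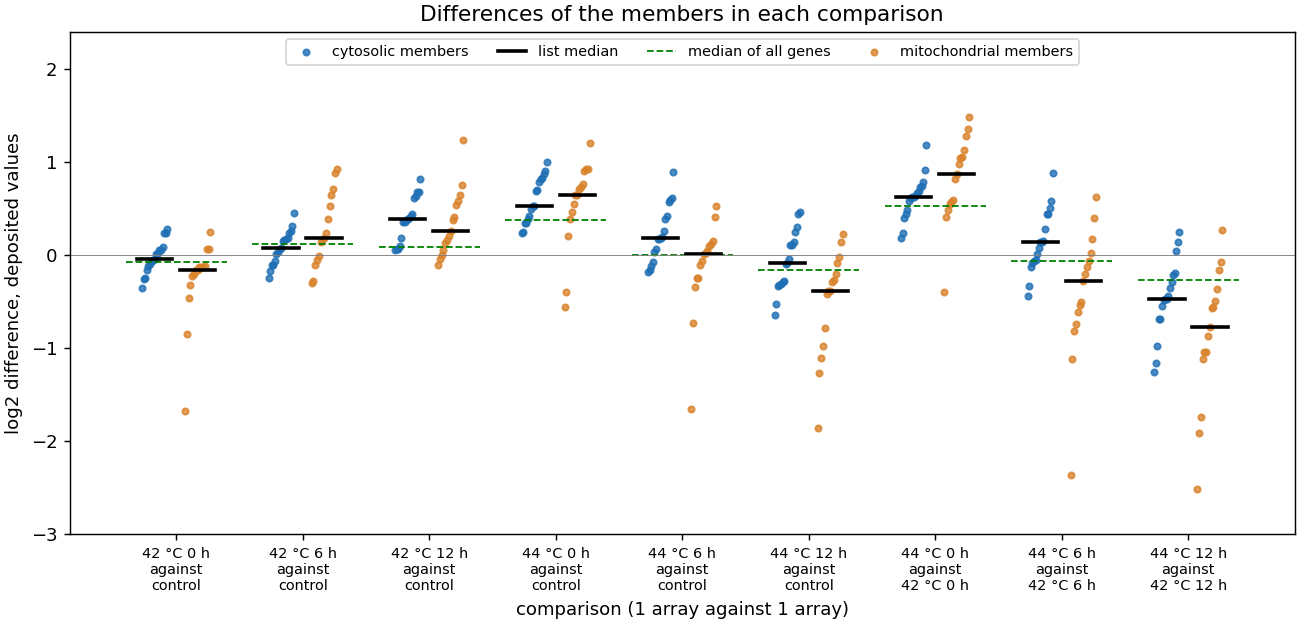
Log2 difference on the deposited values for each cytosolic (blue, n = 17) and mitochondrial (orange, n = 15) member in the 6 comparisons with the control and the 3 between temperatures; black bars are list medians and dashed green lines the median of all genes. At 12 h after 42 °C the cytosolic median (0.39) lies above the all-gene line (0.09), and in the comparison of temperatures at 12 h the mitochondrial points reach -2.51.

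Of the mitochondrial synthetases, HARS2 and MARS2 fell directly after 42 °C, 2 of 15, beside 9.20% of all genes. At 6 h HARS2 and YARS2 rose, 2 of 15, beside 6.58%, and at 12 h PARS2 and YARS2, 2 of 15, beside 4.87%. Directly after 44 °C YARS2 rose, 1 of 15, beside 9.30% of all genes. At 6 h PARS2 fell, 1 of 15, beside 9.58%. At 12 h after 44 °C AARS2, MARS2, PARS2 and YARS2 fell, 4 of 15, beside 10.8% of all genes. The mitochondrial medians over the 6 heated arrays in order were -0.16, 0.19, 0.26, 0.65, 0.01 and -0.39; on the last array the all-gene median was -0.16.

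YARS2, the mitochondrial tyrosyl-tRNA synthetase, had the widest swing among the bright members. It read 982 in the control, then 1033, 1817 and 2322 at 0, 6 and 12 h after 42 °C, and 2274, 1089.9 and 408 at 0, 6 and 12 h after 44 °C. The 2 courses ran in opposite directions: intensity rose with recovery time after 42 °C and fell with it after 44 °C. Against the control it was 2.36-fold higher at 12 h after 42 °C (log2 1.24) and 2.41-fold lower at 12 h after 44 °C (log2 -1.27). Past 2-fold on all 3 scales, 0.968% of all genes rose in the former comparison. At 12 h the 44 °C array was 5.70-fold below the 42 °C array. The values come from 1 probe set.

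HARS2, the mitochondrial histidyl-tRNA synthetase, read 334 in the control, 186, 637 and 526 through the 42 °C course, and 524, 363 and 255 through the 44 °C course. It fell 1.79-fold directly after 42 °C and was 1.91-fold above the control at 6 h, so the array at 6 h was 3.43-fold above that at 0 h. Its neighbour HARS1, the cytosolic histidine enzyme, starts 85 bases away on the opposite strand. HARS1 read 1423 in the control, 1115, 1269 and 1527 at 42 °C, and 2540, 1906 and 1688 at 44 °C. From 0 to 6 h after 42 °C the log2 difference was 0.19 for HARS1 and 1.78 for HARS2. After the median shift these were -0.19 and 1.40.

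The sequence between both starts is shown because the pair shares it, and its 84 bases (59.5% G and C; RefSeq, GRCh38.p14, chr5:140691371-140691454, plus strand, HARS1 to the left and HARS2 to the right) hold none of the 5 motifs searched.
HARS1-HARS2: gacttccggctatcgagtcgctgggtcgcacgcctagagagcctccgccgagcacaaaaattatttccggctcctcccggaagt

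MARS2 and PARS2, for mitochondrial methionine and proline tRNA, were dim, so their folds carry the larger error given above. MARS2 read 109 in the control, 34.1, 143 and 113 through the 42 °C course, and 83.1, 65.7 and 30.1 through the 44 °C course. It was low directly after 42 °C and at 12 h after 44 °C, 3.19-fold and 3.62-fold below the control. PARS2 read 69.4 in the control, 59.4, 113 and 118 at 42 °C, and 118, 22.0 and 35.2 at 44 °C. Its rise at 12 h after 42 °C (log2 0.76, and 0.60 after the median shift) is lost with the floor at 2 times the median (0.58). It fell 3.15-fold at 6 h after 44 °C, to just above the median of all values on the chip (21.4). These 3 falls passed 2-fold on all 3 scales. Among all genes 3.11% fell by that rule directly after 42 °C, 2.62% at 6 h after 44 °C and 3.53% at 12 h after 44 °C.

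AARS2, for mitochondrial alanine, was dim as well, from 32.0 at 12 h after 44 °C to 129 directly after 44 °C, with 68.9 in the control. Its calls, at 12 h after 44 °C and between temperatures, are lost with the mean over its probe sets. IARS2, for mitochondrial isoleucine, ran against most of the others directly after 44 °C. It read 1353 there, its lowest value, beside 1984 in the control, while 13 of the 15 mitochondrial members were above the control on that array. Its log2 difference was -0.55 on the deposited values and -0.95 after the median shift, so it did not pass on all 3 scales.

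After the median shift the steadiest mitochondrial members were NARS2 and RARS2, for asparagine and arginine. On the deposited values CARS2 had the smallest mitochondrial range (0.59). NARS2 read 590 in the control, 528, 649 and 769 through the 42 °C course, and 773, 596 and 452 through the 44 °C course. RARS2 read 838 in the control, 672, 939.9 and 937 at 42 °C, and 1229.7, 779 and 729.6 at 44 °C. After the median shift their ranges were 0.32 and 0.34 in log2, so most of the spread in these intensities followed the brightness of the arrays. A dim RARS2 probe set differed, at 1.21 above the control in log2 at 6 h after 42 °C.

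Comparing the temperatures at the same recovery time, HARS1 rose in the cytosolic set directly after heat (44 °C over 42 °C, 2.28-fold), beside 10.8% of all genes higher and 2.34% lower. AARS2, HARS2 and YARS2 were the mitochondrial members that rose there, by 2.56-, 2.81- and 2.20-fold; the YARS2 call is lost without the floor (0.54 in log2 after the median shift). At 6 h HARS1, VARS1 and SARS2 were higher at 44 °C, beside 5.91% of all genes, and MARS2 and PARS2 lower, beside 11.8%. The VARS1 call again rests on 1 of 2 probe sets: the other read 0.06, and the call is lost with their mean (0.47). PARS2 passed 2-fold there, beside 4.45% of all genes.

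At 12 h AARS1 and CARS1 were lower at 44 °C, 2 of 17, by 2.38- and 2.23-fold, and AARS2, MARS2, PARS2 and YARS2 were lower, 4 of 15, beside 10.7% of all genes lower and 5.17% higher. At 2-fold on all 3 scales MARS2, PARS2 and YARS2 remained, beside 3.59% of all genes. All 4 CARS1 probe sets were lower, by -1.15 to -1.68. SARS1 was lower as well with the mean over its probe sets (-1.40, and -0.89 after the median shift). The cytosolic median was -0.46 on the deposited values, below the -0.27 of all genes, but after the median shift it was 0.05, above all genes, so no direction is given for the cytosolic list as a whole. HARS1 and VARS1, higher at 44 °C at 6 h, read 0.14 and 0.25 at 12 h on the deposited values. After the median shift they read 0.66 and 0.76, and after quantile normalization 0.56 and 0.82. Neither passed on all 3 scales at 12 h, and the scale decides how much of the difference remained.

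The members with and without TGATGNAA at the start were set side by side. At 12 h after 42 °C the 6 measured cytosolic members with the letters had a median of 0.44, and the 8 without had 0.38. In the comparison of temperatures at 12 h the medians were -0.72 with the letters, from -1.25 to -0.44, and -0.39 without, from -0.68 to 0.14. After the median shift these medians were -0.21 and 0.13. The ranges overlapped on the deposited values. Against the control the medians with and without the letters were 0.46 and 0.75 directly after 44 °C, -0.09 and 0.33 at 6 h, and -0.31 and 0.11 at 12 h. The median with the letters was the lower in every one of the 9 comparisons except that at 12 h after 42 °C. Many of these comparisons share an array, and no gap was tested. Read from the brightest probe set of each gene, AARS1, CARS1 and NARS1, for asparagine, were the lowest cytosolic members between temperatures at 12 h. GARS1, IARS1 and TARS1, which hold the letters too, lay near 0 after the median shift. This order depends on the probe set for SARS1, which lacks the letters. The other SARS1 probe set, also bright, read -2.27 in that comparison. The mean over SARS1 probe sets was -1.40, and -0.89 after the median shift. YARS2, the mitochondrial member with the letters, was the lowest of all 32.

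**Figure D4:**
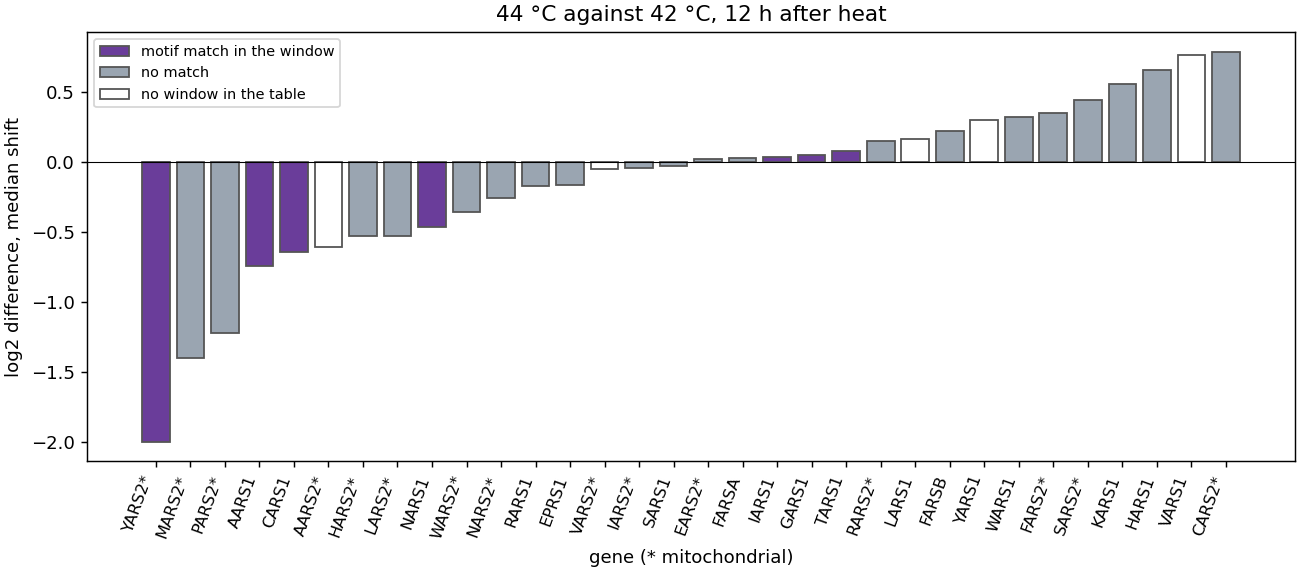
Log2 difference at 12 h, 44 °C minus 42 °C, after the median shift, for each of the 32 measured members in order; purple bars have TGATGNAA in the RefSeq window, grey bars do not, white bars have no window in the table, and * marks mitochondrial members. Each member is read from its brightest probe set. YARS2 is lowest at -2.00, AARS1 (-0.74), CARS1 (-0.64) and NARS1 (-0.46) are the lowest cytosolic members, and the other purple bars lie near 0. SARS1 is at -0.03, but at -0.89 with the mean over its probe sets.

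Genes known as ATF4 targets moved further than the synthetases in the same comparisons. Of 15 measured genes of the amino acid response list, which counts ATF4 itself, 10 rose past 1.5-fold at 12 h after 42 °C, beside 4.87% of all genes, and their median log2 difference was 0.97. The genes past 2-fold were ASNS, TRIB3, CHAC1, DDIT3, SLC7A11, VLDLR and ATF3. ASNS, asparagine synthetase, read 643 in the control, 580, 617 and 1764 through the 42 °C course, and 992, 521 and 433 through the 44 °C course. Like CARS1, it was highest at 12 h after 42 °C, 2.74-fold above the control. At 12 h, 11 of the 15 were lower at 44 °C than at 42 °C, beside 10.7% of all genes. Only 1, ATF3, was higher, beside 5.17% of all genes. The median over the 15 was -1.32. The list was chosen with earlier results of these arrays known, so its direction is not independent evidence.

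EIF2AK4, GCN1, IMPACT and EIF2S1, listed for the pathway that responds to uncharged tRNA, did not pass 1.5-fold on all 3 scales in any of the 9 comparisons. That is a count of 0 of 4, where 40.0% of all genes passed in any of the 6 with the control. Of 8 measured genes for proofreading, maturation and export of tRNA, QRSL1 alone passed: it codes for a subunit of the enzyme that makes mitochondrial glutaminyl-tRNA, and it was 2.62-fold lower at 44 °C than at 42 °C at 12 h, where 10.7% of all genes fell. Of 5 measured genes that deliver charged tRNA to the ribosome, only EEF1A2, for an elongation factor, passed against the control, and it was lower after 42 °C. EEF1A2 read 58.0 in the control and 17.1 directly after 42 °C. The latter lies below the median of all values and was set to it, so that fold depends on the floor. Counts this small do not set these lists apart from all genes.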

How the data were processed

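Total RNA of HSC-3 cells was labelled with biotin and read on 7 arrays, 1 per condition. The deposited values are linear probe set intensities from the authors' series table; their summary method is recorded as not given in the sources used here. Log2 differences were computed from these deposited values, with quantile normalization, and with a median shift (20902 probe sets at or above 21.35, the median of all values, on all arrays). Probe sets were named through the platform annotation: 41097 list 1 gene, 1801 several and 11777 none. Values below that median were set to it, so a fold against such a value is a lower bound. A gene was read from its brightest single-gene probe set and counted if 1 array reached the median; 14975 genes did, and 9681 reached 85.4 on any array.

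A change was called at 1.5- or 2-fold on all 3 scales. With 1 array per condition there are no p-values, and the number of arrays limits the precision. Members past 1.5-fold against the control and at least 85.4 there have every value given. So do the 2 steadiest of each class after the median shift. Other members named, and genes of other lists past 1.5-fold only, were singled out after their values were seen. The rule for members uses gene names alone, but it and the lists were proposed with earlier results of these data known. Motifs were searched in RefSeq windows (GRCh38.p14); LARS1, VARS1, YARS1, AARS2 and VARS2 had none. Alternatives were the scales, the floor, the mean over probe sets and leaving out probe sets with an _s_ or _x_ suffix; deposited values alone and a median over bright genes were added after the data were seen. The code, tested on simulated data, used Python 3.11.15, numpy 2.4.6 and pandas 2.3.3.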

Additional observations from a re-analysis of the deposited data

Results flagged for a closer look

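YARS2 and PARS2, both mitochondrial, moved in opposite directions at 12 h after the 2 temperatures. For YARS2 the log2 difference from the control was 1.24 after 42 °C and -1.27 after 44 °C. For PARS2 it was 0.76 and -0.98. Each group is 1 array and both comparisons share the control, so the difference was not tested. PARS2 is dim, and its rise after 42 °C (0.60 after the median shift) no longer passes 1.5-fold with the floor at 2 times the median (0.58). Both genes have 1 probe set.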

How the results depend on the processing

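With 1 array per condition no replicate could be left out, and no result has a test. No paired analysis was possible because each condition has 1 array and the labels carry no replicate numbers. A value counts here as kept if it moved by less than the SD between probe sets, and a count if it stayed within 1.5 times. Of 126 list medians (relative to all genes) under an alternative, 120 kept their value, 1 moved and 5 of at least 0.1 in size changed sign; with smaller medians included, 12 changed sign, among them the mitochondrial median at 6 h after 42 °C (0.07; -0.11 after quantile normalization, -0.05 after the median shift); of 252 counts, 214 were kept and 38 moved; of 621 values of single members, 482 were kept and 139 moved. Of the 621, 67 changed sign, but 0 of those belong to a called change. The scale decided most of these. Cytosolic at 12 h, 44 °C against 42 °C, the list median minus the all-gene median was 0.0469 after the median shift and, taken against bright genes, 0.0546. The same mitochondrial value at 12 h after 44 °C was 0.0629 after quantile normalization; between temperatures it was 0.0337 (quantile) and 0.0448 (median shift) at 6 h and -0.18 (quantile) at 12 h.

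Counts past 1.5-fold on 1 scale differ from those on all 3. On the deposited values alone, cytosolic members higher numbered 5 at 12 h after 42 °C, 8 directly after 44 °C and 12 directly after heat between temperatures; those lower numbered 1 at 12 h after 44 °C and 5 between temperatures at 12 h. Mitochondrial members higher numbered 4 at 6 h after 42 °C, 9 directly after 44 °C and 10 directly after heat between temperatures; those lower numbered 2 at 6 h after 44 °C and 5 and 8 between temperatures at 6 and 12 h. After quantile normalization cytosolic members higher numbered 3 at 12 h after 44 °C and 5 and 1 between temperatures at 6 and 12 h; mitochondrial members numbered 1 lower at 6 h after 42 °C, 2 higher and 2 lower directly after 44 °C, 1 higher at 6 h and 1 at 12 h after 44 °C, and between temperatures 1 lower at 0 h, 2 higher at 6 h and 1 higher at 12 h. After the median shift cytosolic members higher numbered 4 at 6 h and 4 at 12 h after 44 °C and 6 and 2 between temperatures at 6 and 12 h; mitochondrial members numbered 2 lower directly after 44 °C, 1 higher and 2 lower at 6 h after 44 °C, and between temperatures 1 lower at 0 h, 2 higher at 6 h and 1 higher at 12 h. The mean over probe sets gave 2 (CARS1, SARS1) cytosolic members higher at 12 h after 42 °C and 1 (YARS1) at 6 h after 44 °C; no floor gave 0 directly after 44 °C, where FARSA is lost; a floor of 2 times the median gave 1 mitochondrial member (YARS2) higher at 12 h after 42 °C; leaving out _s_ and _x_ probe sets gave 1 cytosolic member (YARS1) higher directly after 42 °C and 1 (YARS1) at 12 h after 44 °C. These YARS1 calls draw on its dim probe set. Cause beyond the scale was not tested.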
